A study of Homo sapiens with 8 samples.

Results

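Oxidative phosphorylation is the set of mitochondrial reactions in which electrons from NADH and succinate pass along the respiratory chain to oxygen and the proton gradient so formed drives the making of ATP. Complex I (NADH dehydrogenase), complex II (succinate dehydrogenase), complex III (the cytochrome bc1 complex) and complex IV (cytochrome c oxidase) form the chain, and complex V is ATP synthase. Most subunits are encoded in the nucleus and imported, whereas a small set of core subunits is encoded in mitochondrial DNA, which is transcribed as long precursors from both strands and then cut into single mRNAs. Pluripotent stem cells are known for relying heavily on glycolysis while still keeping active respiratory chains, and muscle, lung and testis use their own isoforms of some cytochrome c oxidase subunits.

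The genes described here were the protein-coding rows whose GENCODE 29 symbol starts with MT- or follows the naming pattern of the NDUFA, NDUFB, NDUFC, NDUFS and NDUFV families, SDHA to SDHD, the UQCR genes, COX4 to COX8 and the ATP5 genes. This choice used names and no measured value. It gave 101 of 19969 protein-coding rows, of which 88 were nuclear and 13 mitochondrial. The nuclear genes comprised 36 of complex I, 4 of complex II, 9 of complex III, 18 of complex IV and 21 of complex V. NDUFA4 was counted with complex IV, in which its product sits. The mitochondrial genes comprised 7 of complex I, 1 of complex III, 3 of complex IV and 2 of complex V. Symbols are those of GENCODE 29, so that ATP5MD and ATP5S stand where newer names exist.

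The samples came from H1, an established line of human embryonic stem cells, and were profiled by strand-specific RNA-seq of total RNA. Libraries were made, 2 per stage, from undifferentiated cells (hESC) and after differentiation to the stages called hDE, for definitive endoderm, hAFE, for endoderm of the anterior foregut, and hPFE, for endoderm of the pharyngeal foregut. All stages share this 1 line, and no genotype or other agent separates them in the labels. Factors and days of the protocol were not used here. The labels mark the hESC and hDE libraries as re-analysed, so that in hAFE vs hDE and in hPFE vs hESC the stage and the origin of the libraries cannot be told apart. In hDE vs hESC and in hPFE vs hAFE both stages are marked alike, which does not by itself show that their libraries share 1 origin. The labels do not name separate cultures for libraries of 1 stage, and p-values then measure spread among libraries only, and this spread can be technical.

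The libraries held 12687161 to 17802900 counts. Mitochondrial ribosomal RNA took 10.6% to 18.4% of them and genes named RN7SL took 3.76% to 11.7%, with both hDE libraries at the top of the second range. The stage labels were checked against marker genes. All 6 definitive endoderm markers rose in hDE. Stem cell markers summed to 3807 and 4368 CPM in hESC, 2458 and 2551 in hDE, 1193 and 1347 in hAFE, and 257 and 319 in hPFE. Of 9 tested foregut and pharyngeal markers 8 were higher in hPFE than in hESC, but only 1 was higher in hPFE than in hAFE. The sums of the 10 listed foregut and pharyngeal markers overlapped between hAFE (270 and 253 CPM) and hPFE (353 and 220), so they did not separate these 2 stages. Mesenchyme markers, which the hPFE label does not imply, summed to 1517 and 265 CPM in the hPFE libraries and to at most 100.2 CPM elsewhere. Levels are given as CPM, counts scaled to library size, after TMM scaling to the bulk of genes, and TPM, which is also scaled to transcript length, is used where levels of single genes are set side by side. Shares and ratios of summed counts weight longer transcripts more, and the ratio of the sums is given in TPM too.

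As shares of all counts, nuclear and mitochondrial genes were lowest at different stages, hDE and hAFE. The 88 nuclear genes together made up 0.638% and 0.666% of all counts in hESC, 0.393% and 0.399% in hDE, 0.512% and 0.485% in hAFE, and 0.459% and 0.462% in hPFE. Both hESC libraries lay above all 6 later libraries and both hDE libraries lay below all others. The 13 mitochondrial mRNAs made up 1.04% and 0.820% in hESC, 0.782% and 0.673% in hDE, 0.548% and 0.596% in hAFE, and 0.667% and 0.866% in hPFE. Here hAFE was lowest in both libraries, and the hPFE and hESC libraries overlapped. In sums of deposited TPM both were lowest in hDE, where the nuclear sum was 2295 and 2477 and the mitochondrial sum 4151 and 3779, against 4469 and 4719 for the mitochondrial sum in hAFE.

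The ratio of mitochondrial to nuclear genes within a library does not depend on scaling between libraries. From counts it was 1.63 and 1.23 in hESC, 1.99 and 1.69 in hDE, 1.07 and 1.23 in hAFE, and 1.45 and 1.88 in hPFE. The means were 1.43 ± 0.28, 1.84 ± 0.21, 1.15 ± 0.11 and 1.66 ± 0.30 (SD, n = 2). From TPM it was 1.55 and 1.16 in hESC, 1.81 and 1.53 in hDE, 1.02 and 1.20 in hAFE, and 1.28 and 1.65 in hPFE. In both units the hDE and the hPFE libraries lay above the hAFE libraries. The hDE libraries lay above the hESC libraries in counts, by a narrow margin (1.69 against 1.63), but overlapped with them in TPM. With 2 libraries a stage these differences were not tested. Mitochondrial mRNA as a share of all mitochondrial counts, ribosomal RNA included, was 7.79% and 6.93% in hESC, 6.87% and 4.53% in hDE, and 4.41% to 4.67% in the hAFE and hPFE libraries. Both hESC libraries lay above all others in this share, which depends on how much mitochondrial ribosomal RNA a library kept.

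**Figure D1:**
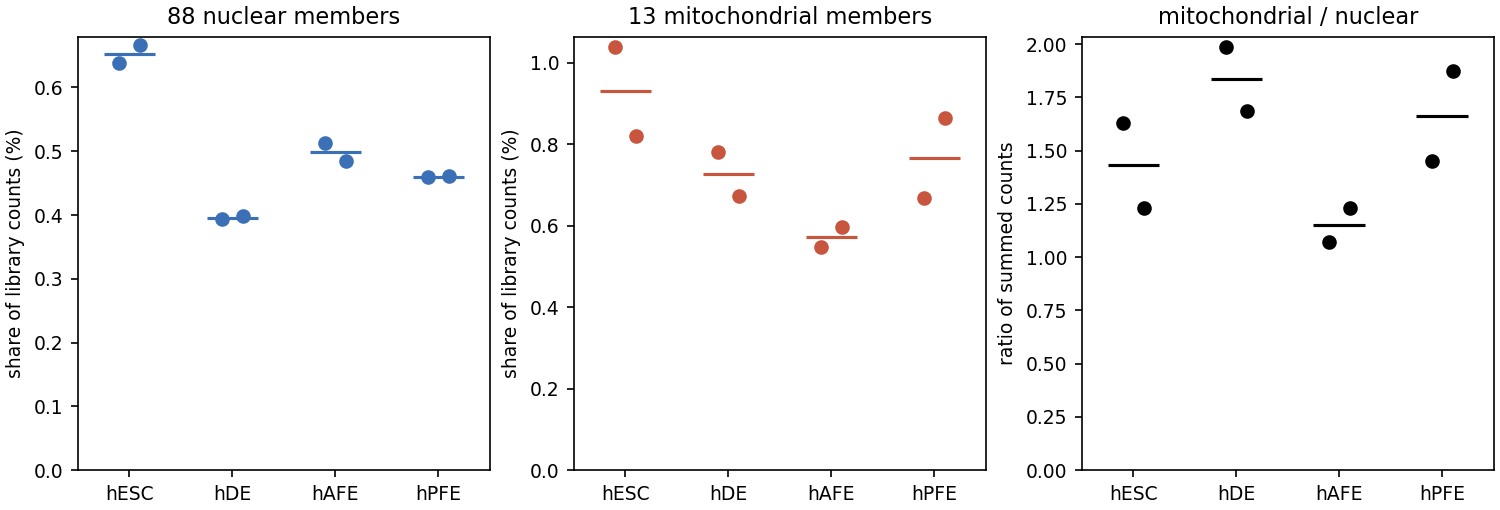
Share of all counts in a library taken by the 88 nuclear genes (left, percent) and by the 13 mitochondrial mRNAs (middle, percent), and the ratio of their summed counts (right), by stage. Points are the 2 libraries of a stage and lines are their means. The nuclear share was lowest in hDE at 0.393% and 0.399%, whereas the mitochondrial share was lowest in hAFE at 0.548% and 0.596%.

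Low counts removed 7 nuclear genes from testing. These were ATP5MGL and the isoforms COX4I2, COX6A2, COX6B2, COX7A1, COX7B2 and COX8C. COX7B2 and COX8C were at 0 in all 8 libraries. The other 81 nuclear and all 13 mitochondrial genes were tested among 17446 genes. The mean CPM of 68 of the 81 nuclear genes (84.0%) was highest in hESC, against 31.3% of all genes tested. For the 13 mitochondrial genes the highest mean lay in hESC for 6 and in hDE for 7, and the lowest lay in hAFE for 10 and in hPFE for 3.

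The sequence before the start of a few genes is shown because promoters of respiratory genes are known for sites of NRF1, of ETS factors such as GABPA, of YY1 and of the ERR receptors. Of the 88 nuclear genes, 70 had a promoter window of 250 bases before to 50 after the start in RefSeq (GRCh38.p14). NDUFB4 and COX7C both fell in hDE and differ in their matches, and COX8C holds a match but had 0 counts in every library. Capitals mark letters that match the NRF1 motif on either strand. The bases lie at chr3:120596086-120596308, chr5:86617691-86617903 and chr14:93346932-93347181, all on the plus strand, and end before the GENCODE 29 gene begins.
NDUFB4: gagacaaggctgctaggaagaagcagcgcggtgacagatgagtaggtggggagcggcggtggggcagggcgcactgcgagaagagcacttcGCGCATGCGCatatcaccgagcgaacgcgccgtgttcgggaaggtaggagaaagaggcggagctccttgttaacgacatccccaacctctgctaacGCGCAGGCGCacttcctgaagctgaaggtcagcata
COX7C: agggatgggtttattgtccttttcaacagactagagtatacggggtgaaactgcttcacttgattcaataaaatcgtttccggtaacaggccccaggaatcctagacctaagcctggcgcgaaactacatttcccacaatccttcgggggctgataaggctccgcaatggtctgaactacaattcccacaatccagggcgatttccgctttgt
COX8C: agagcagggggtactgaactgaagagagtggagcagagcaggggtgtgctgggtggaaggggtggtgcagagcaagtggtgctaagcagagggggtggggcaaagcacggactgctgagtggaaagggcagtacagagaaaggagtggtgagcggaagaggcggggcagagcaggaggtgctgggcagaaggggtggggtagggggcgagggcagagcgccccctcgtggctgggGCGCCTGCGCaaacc

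NDUFB4 held 2 NRF1 matches in the printed bases and a further match across the start, and COX7C held none of the motifs searched. The motif letters, searched on both strands over the whole window, were GCGC followed by N and TGCGC for NRF1, CCGGAAG for ETS, ATGGCGGC for YY1 and CAAGGTCA for ERR. NRF1 matches occurred in 17 of 70 genes (24.3%), against 6.98% of all 27305 genes with a window and 9.66% of the protein-coding ones. ETS matches occurred in 21 genes (30.0%), against 12.2% and 16.5%, and YY1 matches in 12 genes (17.1%), against 3.67% and 5.23%. ERR matches occurred in 4 genes (5.71%), against 1.60% and 1.37%. A match is a description of letters, and a gene with several windows counted once if any of them matched.

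The promoter letters were set beside the change from hESC to hDE. Of all genes tested 21.6% were called lower in that comparison, and their median log2 change over all genes was -0.01. Of the 16 tested genes with an NRF1 match, 9 fell in hDE (median log2 change -0.45), and of the 50 without, 20 fell (median -0.42). With an ETS match 10 of 21 fell (median -0.45), and without it 19 of 45 fell (median -0.39). With a YY1 match 4 of 12 fell (median -0.39), and without it 25 of 54 fell (median -0.46). All 4 genes with an ERR match, ATP5MG, COX8A, NDUFA5 and SDHD, fell (median -0.75), against 25 of 62 without (median -0.40). Apart from these 4 genes the medians with and without a match lay close together.

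In the comparison of definitive endoderm with stem cells, nuclear respiratory genes fell across all 5 complexes. Among the 81 tested nuclear genes 37 were lower and 2 higher, where 21.6% of all genes were called lower, 20.3% higher and 41.9% in either direction. In 75 of the 81 the estimate lay below 0, and the median log2 change was -0.44 against -0.01 for all genes tested. Lower were 13 of 36 genes of complex I, 2 of 4 of complex II, 7 of 9 of complex III, 4 of 12 of complex IV and 11 of 20 of complex V.

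Complex I held 2 of the 4 largest falls. NDUFB4 encodes an accessory subunit of the membrane arm (chromosome 3, 120596309 to 120602500, GENCODE 29 on hg38), and its level was 86.2 and 88.9 CPM in hESC, 36.9 and 34.5 in hDE, 41.2 and 39.7 in hAFE, and 44.0 and 45.0 in hPFE. All later libraries lay far below the hESC libraries, and the change in hDE was -1.29 on the log2 scale (SE 0.12, edgeR quasi-likelihood adjusted p = 0.00022). NDUFV2, an iron-sulfur subunit of the module that oxidizes NADH, stood at 91.2 and 100.2 CPM in hESC and at 41.3 and 41.5 in hDE (log2 change -1.21, SE 0.12, edgeR quasi-likelihood adjusted p = 0.00029). Its hAFE and hPFE libraries lay between these levels, at 58.5 to 61.4 CPM. NDUFB3, another accessory subunit of the membrane arm, rose instead, from 19.5 and 24.7 to 33.5 and 29.8 CPM (log2 change 0.52, SE 0.17, edgeR quasi-likelihood adjusted p = 0.039). That call was lost without any 1 of the 4 hESC and hDE libraries, with adjusted p up to 0.23.

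In complex II the catalytic flavoprotein SDHA and the membrane anchor SDHD fell, and the other anchor SDHC did not pass the test at 91.6 and 78.6 CPM in hESC against 108 and 102 in hDE. In complex III UQCRH, the acidic hinge protein next to cytochrome c1, fell from 188 and 202 to 93.0 and 100.3 CPM (log2 change -1.01, SE 0.12, edgeR quasi-likelihood adjusted p = 0.00065). The Rieske iron-sulfur protein gene UQCRFS1 fell by 0.98 on the log2 scale. UQCRHL, a close copy of UQCRH, made up 0.783% to 1.16% of the pair's TPM in every library, and the deposited posterior SD of the counts was 0 for both genes in every library.

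In complex IV COX7C, a small structural subunit, showed the largest fall. Its level was 256 and 271 CPM in hESC, 115 and 118 in hDE, 140 and 141 in hAFE, and 150 and 148 in hPFE, with no overlap between hESC and any later stage. The change in hDE was -1.18 (SE 0.12, edgeR quasi-likelihood adjusted p = 0.00031). COX8A, NDUFA4 and COX6B1 fell by 0.82, 0.77 and 0.45 on the log2 scale. The other 8 tested nuclear genes of complex IV did not pass the test, although all 12 estimates lay below 0.

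ATP synthase held both the largest falls and the largest rise. ATP5MC1, the first of the genes for subunit c of the membrane rotor (chromosome 17, 48892765 to 48895871), went from 22.7 and 28.7 CPM in hESC to 10.2 and 8.98 in hDE, and its hAFE and hPFE libraries lay at 9.11 to 10.4 CPM. The hESC libraries stood apart from all others, and the change in hDE was -1.42 (SE 0.20, edgeR quasi-likelihood adjusted p = 0.0013). ATP5MC2, the second gene for the same subunit (chromosome 12, 53632726 to 53677408), went from 123 and 127 to 50.7 and 49.2 CPM (log2 change -1.32, SE 0.13, edgeR quasi-likelihood adjusted p = 0.00035). ATP5F1A, which encodes the alpha subunit, and ATP5F1B, which encodes the catalytic beta subunit, fell by 0.69 and 0.81 on the log2 scale. ATP5MD, a small accessory subunit also known as DAPIT (chromosome 10, 103389041 to 103396492), rose from 51.8 and 56.1 CPM to 79.2 and 81.6 (log2 change 0.57, SE 0.13, edgeR quasi-likelihood adjusted p = 0.012). This rise kept its sign without any 1 library but lost the call without either hESC or either hDE library, with adjusted p of up to 0.088.

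Calls among all genes tested became fewer without any 1 hESC or hDE library. The number of nuclear genes called also depended on the libraries of the 2 stages compared. It was 22 without hESC library 1, 17 without hESC library 2, 16 without hDE library 1 and 20 without hDE library 2, all of them lower, against 39 with all libraries. On deposited TPM without further scaling the median of all genes lay at -0.27, and 5412 of 17446 genes were called. There 59 nuclear genes were lower and none higher, and ATP5MD and NDUFB3 turned to -0.073 and -0.032. RN7SL genes took 11.5% ± 0.24 of counts in hDE and 7.22% ± 1.7 in hESC (SD, n = 2), and with scaling computed without these and other abundant structural genes 36 nuclear genes were lower and 2 higher.

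Of the 13 mitochondrial genes 1 was lower in hDE vs hESC and none was higher, beside 21.6% lower and 20.3% higher among all genes tested. The median log2 change of the 13 genes was 0.08, with 0.30 without hESC library 1, -0.16 without hESC library 2 and -0.12 without hDE library 1. No test of the difference between nuclear and mitochondrial genes was made beyond the ratios given above. The gene called was MT-CO3, the third core subunit of complex IV (mitochondrial DNA, 9207 to 9990), at 3019 and 2545 CPM in hESC, 1451 and 1711 in hDE, 829 and 1025 in hAFE, and 1384 and 1883 in hPFE. Both hESC libraries lay above all 6 others and both hAFE libraries below all others. The change in hDE was -0.82 (SE 0.21, edgeR quasi-likelihood adjusted p = 0.017), and it lost the call without hESC library 1, hDE library 1 or hDE library 2, with adjusted p of up to 0.11. As a share of mitochondrial mRNA counts MT-CO3 took 28.8% and 30.8% in hESC, 16.2% and 21.7% in hDE, 16.7% and 18.5% in hAFE, and 21.9% and 23.4% in hPFE. This share, which needs no scaling between libraries, was also highest in both hESC libraries.

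**Figure D2:**
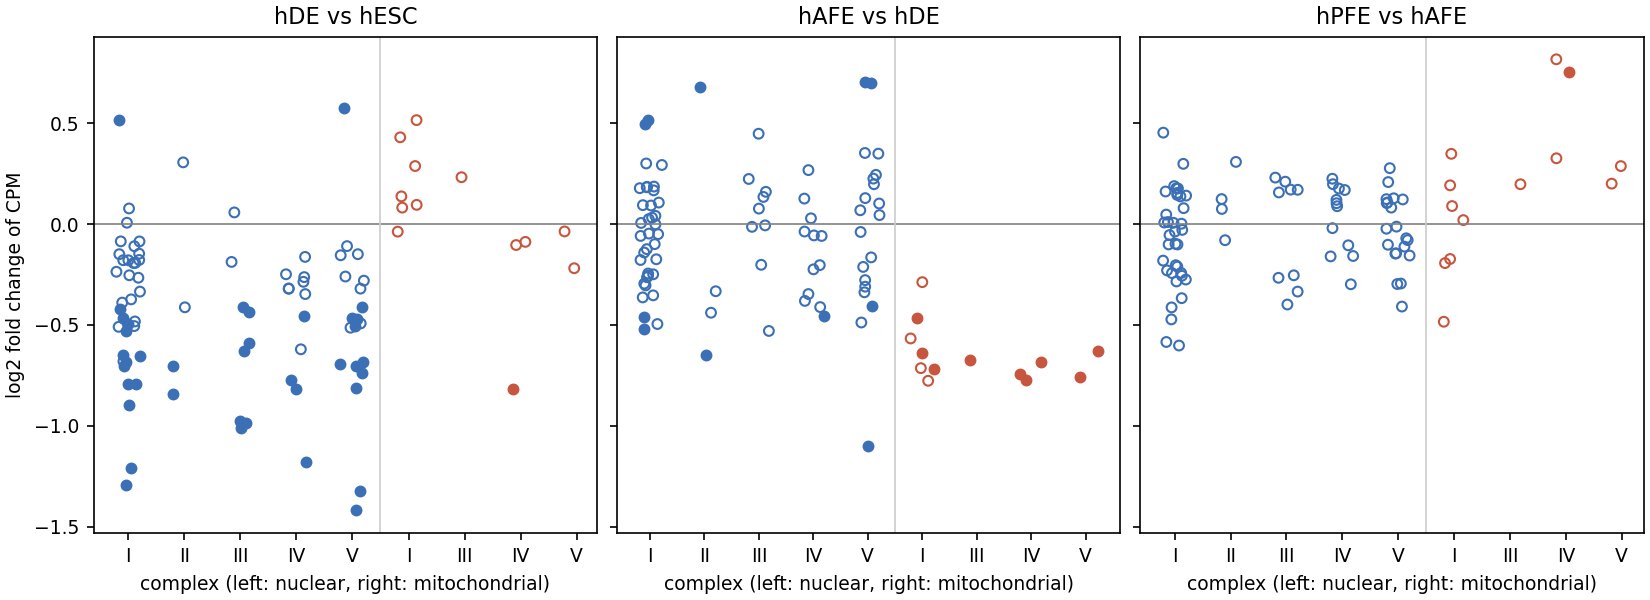
Log2 fold change of CPM for each tested gene (vertical axis) by complex (horizontal axis) in 3 comparisons. Blue points left of the grey line are nuclear genes, red points right of it are mitochondrial, filled points passed the edgeR test and horizontal scatter has no meaning. In hDE vs hESC 75 of 81 nuclear points lie below 0, and in hAFE vs hDE all 13 mitochondrial points do.

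In the step from definitive endoderm to anterior foregut most mitochondrial genes were lower. In hAFE vs hDE 9 of 13 mitochondrial genes were lower and none higher, where 15.2% of all genes were called lower, 15.0% higher and 30.2% in either direction. All 13 estimates lay below 0 and their median was -0.69. Of the 81 nuclear genes 5 were higher and 6 lower, and the median was -0.04 against 0.01 for all genes tested.

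Among the core subunits of complex IV, MT-CO1, which carries the oxygen-binding site (5904 to 7445), stood at 2640 and 2210 CPM in hESC, 2268 and 2246 in hDE, 1336 and 1471 in hAFE, and 2185 and 2543 in hPFE. Its hAFE libraries alone lay apart, below all the others, and the change from hDE was -0.69 (SE 0.16, edgeR quasi-likelihood adjusted p = 0.016). MT-CO2, which takes electrons from cytochrome c (7586 to 8269), stood at 622 and 499 CPM in hESC, 529 and 525 in hDE, 305 and 325 in hAFE, and 358 and 433 in hPFE. Its hESC and hDE libraries, the re-analysed ones, overlapped and lay above all hAFE and hPFE libraries. The change from hDE to hAFE was -0.74 (SE 0.16, edgeR quasi-likelihood adjusted p = 0.012). MT-CO3 changed by -0.77 (SE 0.21, edgeR quasi-likelihood adjusted p = 0.027).

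MT-CYB, the cytochrome b of complex III (14747 to 15887), stood at 847 and 683 CPM in hESC, 961 and 836 in hDE, 524 and 602 in hAFE, and 544 and 748 in hPFE. It changed by -0.68 from hDE to hAFE (SE 0.20, edgeR quasi-likelihood adjusted p = 0.037), with hDE above hAFE in both libraries. The genes of ATP synthase, MT-ATP8 and MT-ATP6, share a stretch of sequence. The deposited posterior SD of the counts was 0 for MT-ATP8 in every library and at most 0.0018 of the count for MT-ATP6.
MT-ATP8 and MT-ATP6: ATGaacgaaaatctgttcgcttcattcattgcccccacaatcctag
These 46 bases (chrM:8527-8572 of hg38, plus strand) end the MT-ATP8 frame and begin the MT-ATP6 frame, whose start codon is in capitals. MT-ATP6 stood at 556 and 467 CPM in hESC, 501 and 378 in hDE, 263 and 305 in hAFE, and 319 and 374 in hPFE, and MT-ATP8 at 35.3 and 28.7, 33.0 and 29.3, 18.4 and 18.4, and 20.5 and 21.9. Both were lower in both hAFE libraries than in any hESC or hDE library. Their changes from hDE to hAFE were -0.63 (SE 0.19, edgeR quasi-likelihood adjusted p = 0.037) and -0.76 (SE 0.16, edgeR quasi-likelihood adjusted p = 0.011).

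Of the complex I genes MT-ND3, MT-ND4 and MT-ND4L were lower in hAFE than in hDE. MT-ND4 (10760 to 12137), a proton-pumping subunit, stood at 904 and 692 CPM in hESC, 974 and 731 in hDE, 507 and 531 in hAFE, and 553 and 633 in hPFE. The hAFE and hPFE libraries all lay below the hESC and hDE libraries, and the change from hDE was -0.72 (SE 0.19, edgeR quasi-likelihood adjusted p = 0.027). This split is also the one between re-analysed and other libraries, so stage and origin cannot be told apart. MT-CO2, MT-ATP8, MT-ATP6 and MT-ND4L split in the same way. MT-ND4L, which overlaps MT-ND4 by 7 bases, stood at 110 and 90.4 CPM in hESC, 101 and 94.4 in hDE, 67.1 and 74.5 in hAFE, and 69.4 and 74.2 in hPFE. MT-ND3 stood at 157 and 111, 150 and 145, 93.7 and 95.7, and 102 and 140 CPM over the same stages. In both genes the hAFE libraries lay below the hDE libraries, and their log2 changes were -0.46 (SE 0.14) and -0.64 (SE 0.21), with edgeR quasi-likelihood adjusted p of 0.042 and 0.0498.

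MT-ND1, MT-ND2, MT-ND5 and MT-ND6 were called in no comparison. MT-ND5 stood at 597 and 342 CPM in hESC, 828 and 515 in hDE, 394 and 390 in hAFE, and 347 and 487 in hPFE. MT-ND1 stood at 400 and 273, 419 and 294, 276 and 308, and 189 and 329 CPM over the same stages, and MT-ND2 at 416 and 270, 523 and 314, 287 and 278, and 179 and 315. In all 3 genes the spread between libraries of hESC, hDE and hPFE exceeded that in hAFE. MT-ND6, the only protein-coding gene read from the other, light strand (14149 to 14673), stood at 177 and 44.9 CPM in hESC, 239 and 60.3 in hDE, 74.7 and 108 in hAFE, and 58.9 and 71.5 in hPFE. Library 1 exceeded library 2 by 3.95 times in hESC and 3.97 times in hDE for this gene, and every mitochondrial gene was higher in library 1 of hESC. In hDE 12 of 13 were, in hAFE 3 and in hPFE none.

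**Figure D3:**
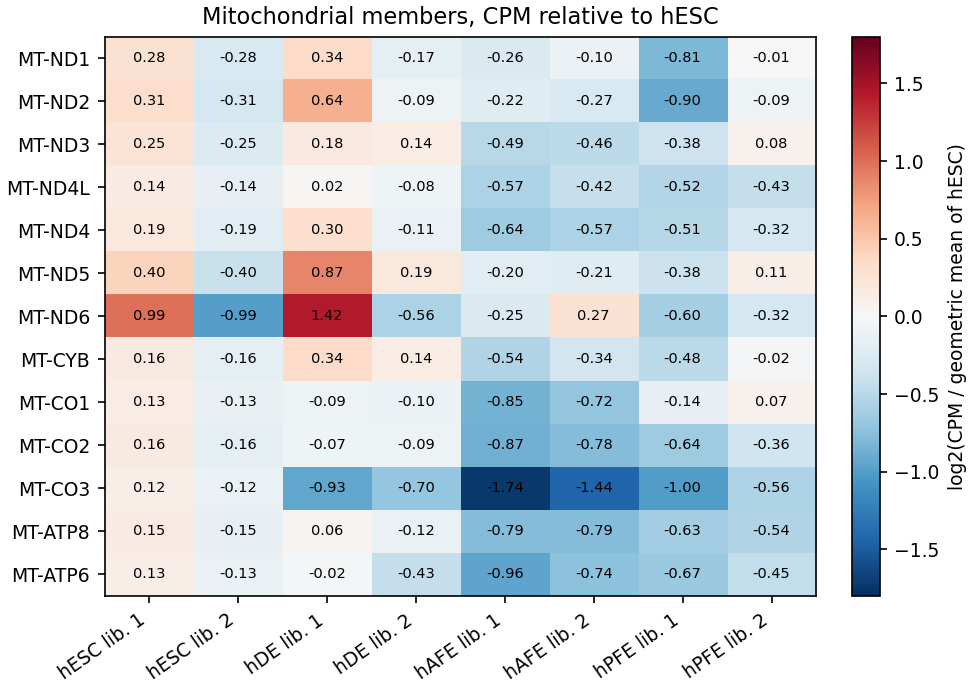
Each cell gives log2 of the CPM of a mitochondrial gene (rows) in 1 library (columns) over the geometric mean of the 2 hESC libraries, with red above and blue below. MT-CO3 is below hESC in all later libraries and most genes are lowest in hAFE, where MT-CO3 reached -1.74 and -1.44, while MT-ND6 differs between libraries of hESC (0.99 and -0.99) and of hDE (1.42 and -0.56).

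The mitochondrial calls in hAFE vs hDE rested on few libraries. Calls among all genes tested also became fewer without any 1 hESC, hDE or hAFE library. The count of 9 became 0 without hDE library 1, 3 without hDE library 2, 2 without hAFE library 1, 4 without hAFE library 2 and 6 without either hESC library. On unscaled TPM, where the median of all genes lay at 0.50, the mitochondrial median was 0.22 and the nuclear median 0.78. There 7275 of 17446 genes were called, no mitochondrial gene was called, and 48 nuclear genes were higher and none lower.

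In complex V 2 of 20 nuclear genes were higher and 2 lower in hAFE vs hDE, a smaller share than the 30.2% of all genes called. This comparison shares the hDE libraries with hDE vs hESC, so values of all 3 stages are set side by side. ATP5MC2 was at 77.8 and 84.2 CPM in hAFE, above both hDE libraries and below both hESC libraries (log2 change 0.70, SE 0.13, edgeR quasi-likelihood adjusted p = 0.0070). ATP5MD was at 38.1 and 36.9 CPM in hAFE, below every hESC and hDE library (log2 change -1.10, SE 0.14, edgeR quasi-likelihood adjusted p = 0.0011), and this call held without any 1 library. ATP5S, an accessory gene also called coupling factor B, went from 10.5 and 14.2 CPM in hDE to 20.0 and 20.3 (log2 change 0.70, SE 0.21, edgeR quasi-likelihood adjusted p = 0.041). In ATP5MC2 and ATP5S the hAFE libraries both lay above the hDE libraries.

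Complex II split within itself between hDE and hAFE. SDHA, the subunit that oxidizes succinate (chromosome 5, 218241 to 256700), was at 51.5 and 50.6 CPM in hESC, 34.0 and 28.7 in hDE, 51.7 and 48.6 in hAFE, and 61.7 and 43.9 in hPFE. It rose from hDE to hAFE by 0.68 on the log2 scale (SE 0.18, edgeR quasi-likelihood adjusted p = 0.027). SDHB, its iron-sulfur partner (chromosome 1, 17018722 to 17054170), was at 49.3 and 52.6 CPM in hESC, 36.2 and 40.3 in hDE, 27.4 and 21.4 in hAFE, and 31.1 and 29.4 in hPFE, and changed from hDE by -0.65 (SE 0.16, edgeR quasi-likelihood adjusted p = 0.018). SDHA was thus lowest in both hDE libraries and SDHB lowest in both hAFE libraries, with no overlap between the 2 stages in either gene.

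In complex I NDUFA5, an accessory subunit of the peripheral arm, rose from 32.0 and 32.0 to 44.3 and 47.5 CPM (log2 change 0.52, SE 0.12, edgeR quasi-likelihood adjusted p = 0.017), and NDUFV2 rose by 0.50. NDUFB3 went from 33.5 and 29.8 to 22.1 and 22.01 CPM and NDUFB2, a further accessory subunit, from 37.2 and 37.3 to 29.3 and 24.9. Both fell without overlap, with edgeR quasi-likelihood adjusted p of 0.049 and 0.045. The call of ATP5MC2 was lost without either hDE library, those of SDHB and NDUFA5 also without hAFE library 2, and those of ATP5S, SDHA, NDUFB2 and NDUFB3 without any 1 hESC, hDE or hAFE library. The count fell from 11 to 1 without either hDE library, to 3 without hAFE library 2, to 7 without hAFE library 1 and to 5 without either hESC library. It rose without either hPFE library. In each of these settings calls among all genes tested moved in the same direction.

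From anterior to pharyngeal foregut no nuclear gene passed the edgeR test. In hPFE vs hAFE 0 of 81 were called by edgeR, where 7.49% of all genes were called, 4.77% higher and 2.71% lower. At an unadjusted p under 0.05 edgeR gave 6 nuclear genes, and DESeq2 called 0. Their median log2 change was -0.02, against -0.03 for all genes. Without hPFE library 1 the count was 5, all lower, and without any other library it was 0. Of the mitochondrial genes MT-CO1 was higher in both hPFE libraries than in both hAFE libraries (log2 change 0.75, SE 0.16, edgeR quasi-likelihood adjusted p = 0.035), a call that was lost without any 1 library other than hPFE library 1, with adjusted p of up to 0.11. MT-CO3 had the larger estimate, 0.82 (SE 0.21), but missed the threshold at an edgeR quasi-likelihood adjusted p of 0.056. As a share of mitochondrial mRNA MT-CO1 took 34.6% and 31.6% in hPFE and 25.2% to 28.5% in the other 6 libraries. Mesenchyme markers were higher in hPFE library 1 than in library 2 (1517 and 265 CPM summed over 10 genes), and their part in these results was not tested.

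Across the whole course, hPFE cells held lower levels of most nuclear respiratory genes than stem cells. In hPFE vs hESC 50 of 81 were lower and none higher, where 23.3% of all genes were called lower, 21.6% higher and 45.0% in either direction. Lower were 20 of 36 in complex I, 2 of 4 in complex II, 6 of 9 in complex III, 10 of 12 in complex IV and 12 of 20 in complex V. The median log2 change was -0.58 against 0.02 for all genes. hDE vs hESC and hPFE vs hESC share the hESC libraries, so that the 2 counts are not independent of each other.

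The 4 largest falls were in ATP5MC1, NDUFS6, SDHD and UQCRH. ATP5MC1 was at 9.11 and 9.52 CPM in hPFE, below its hESC values (log2 change -1.46, SE 0.20, edgeR quasi-likelihood adjusted p = 0.0012). NDUFS6, an accessory subunit of the peripheral arm of complex I (chromosome 5, 1801400 to 1816605), was at 37.9 and 36.2 CPM in hESC, 20.8 and 21.9 in hDE, 24.0 and 19.5 in hAFE, and 17.2 and 11.3 in hPFE (log2 change -1.37, SE 0.22, edgeR quasi-likelihood adjusted p = 0.0024). Its hESC libraries lay above, and its hPFE libraries below, all others. SDHD, which anchors complex II in the membrane (chromosome 11, 112086773 to 112120013), was at 67.4 and 71.2 CPM in hESC, 38.4 and 39.0 in hDE, 30.5 and 26.6 in hAFE, and 27.1 and 35.2 in hPFE (log2 change -1.16, SE 0.16, edgeR quasi-likelihood adjusted p = 0.0013). UQCRH was at 90.6 and 88.5 CPM in hPFE and 114 and 112 in hAFE (log2 change from hESC -1.12, SE 0.12, edgeR quasi-likelihood adjusted p = 0.00047). The calls of all 4 genes held without any 1 library.

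Of the mitochondrial genes 5 of 13 were lower in hPFE than in hESC and none higher, and their median log2 change was -0.47. Among all genes tested 23.3% were lower and 21.6% higher. MT-CO3 changed by -0.77 (SE 0.21, edgeR quasi-likelihood adjusted p = 0.020), and MT-ATP8, MT-ATP6, MT-CO2 and MT-ND4L by -0.59, -0.56, -0.50 and -0.48. MT-CO1 stayed out of this set with -0.04 (SE 0.16). The count was 0 without hESC library 1 or hPFE library 1, 2 without hESC library 2 and 3 without either hDE library. The nuclear count was 29 without hESC library 1, 18 without hESC library 2 and 41 to 50 without any other library. On unscaled TPM, where the median of all genes lay at 0.36, the nuclear median was 0.02 and the mitochondrial median was 0.12. There 6771 of 17446 genes were called, and 3 nuclear genes were higher and 2 lower.

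Levels of the best expressed nuclear gene of each complex were compared per length, in TPM averaged over the 8 libraries. COX7C of complex IV stood at 215, ATP5F1A of complex V at 171, NDUFS5 of complex I at 158, UQCRH of complex III at 148 and SDHC of complex II at 26.4. Complex II thus had the lowest top value of the 5, but this was taken over 4 nuclear genes, against 9 to 36 in the other complexes. The leading gene depended on the stage in complexes II and V. ATP5MF, a small membrane subunit, averaged 169.6 over all libraries. It exceeded ATP5F1A in hDE (102 against 90.4), where ATP5MD was higher still at 123, and lay within the spread between libraries of it in hAFE (198.3 against 196.5) and hPFE (187 against 182). In hESC the mean of SDHB was 25.8 and that of SDHC 25.3. By library COX7C ranged from 91.4 in hDE library 1 to 335 in hPFE library 2 and SDHC from 18.9 to 43.6, so the first 4 genes overlapped each other and none of them overlapped SDHC.

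Cytochrome c oxidase has paired isoforms that differ between tissues. The widely expressed form made up nearly all of the TPM of its family in every library. COX4I1 reached at least 99.95% of COX4, COX6A1 at least 99.9% of COX6A, COX6B1 at least 99.6% of COX6B, and COX7B and COX8A made up 100% of theirs. In the COX7A family COX7A2 took 77.9% to 82.4% and COX7A2L, which is known for its role in assembling chain supercomplexes, took 17.6% to 22.1%. The hESC libraries alone, at 77.9% and 82.3% COX7A2, spanned nearly this whole range.

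COX7A1, the heart and skeletal muscle form (chromosome 19, 36150922 to 36152869), held 8 counts in all. There were 1 and 0 counts in the hESC libraries, 4 and 3 in hDE, and 0 in each hAFE and hPFE library. The hDE level was 9.60 times that of hESC with a counting interval of 1.23 to 433 (exact binomial, 95%), and the difference did not pass the edgeR quasi-likelihood test run without a count filter (adjusted p = 0.30). A sum of 0 is compatible with as many as 3 counts per stage, which is 0.104 CPM in hAFE and 0.0989 CPM in hPFE. Intervals and floors cover counting error only. COX7A1 was at most 0.478% of the COX7A family in any library, and at 8 counts no likeness of its pattern to other genes was computed. Striated muscle markers, 16 genes of which 2 were at 0 throughout, summed to 26.8 and 24.9 CPM in hESC, 303 and 236 in hDE, 227 and 202 in hAFE, and 99.7 and 71.0 in hPFE. Of these 16 markers 8, 8, 6 and 7 lay at or under the floor in the 4 stages, and their part in the COX7A1 counts was not tested. Between fewer cells of a type and less RNA per cell, bulk RNA cannot tell.

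COX6B2, a testis form (chromosome 19, 55349306 to 55354814), was the one scarce isoform with a difference between stages. It held 28 and 11.8 expected counts in the hESC libraries, 0 in both hDE libraries, 2 in all in hAFE and 3.87 in all in hPFE. The hDE level was at least 9.68-fold lower than the hESC level, taken against the floor of 3 counts over the stage (edgeR quasi-likelihood without a count filter, adjusted p = 2.8e-05). This bound was 5.57 without hESC library 1, 14.0 without hESC library 2, 5.34 without hDE library 1 and 4.34 without hDE library 2. The hESC level was 16.7 times that of hAFE (counting interval 4.35 to 143) and 9.09 times that of hPFE (3.19 to 34.0). Without hESC library 1 these ratios were 9.62 and 5.23, and without hPFE library 1 the second was 16.1. Both hESC libraries lay above all others, and the gene made up 0.381% and 0.137% of COX6B there. Male germ cell markers, 9 genes of which 3 were at 0 throughout, summed to 9.19 and 5.99 CPM in hESC and to at most 0.649 CPM later, and their part in the COX6B2 counts was not tested. COX4I2, the lung form, held 1 count and COX6A2, a further muscle form, held 2, all in hESC.

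**Figure D4:**
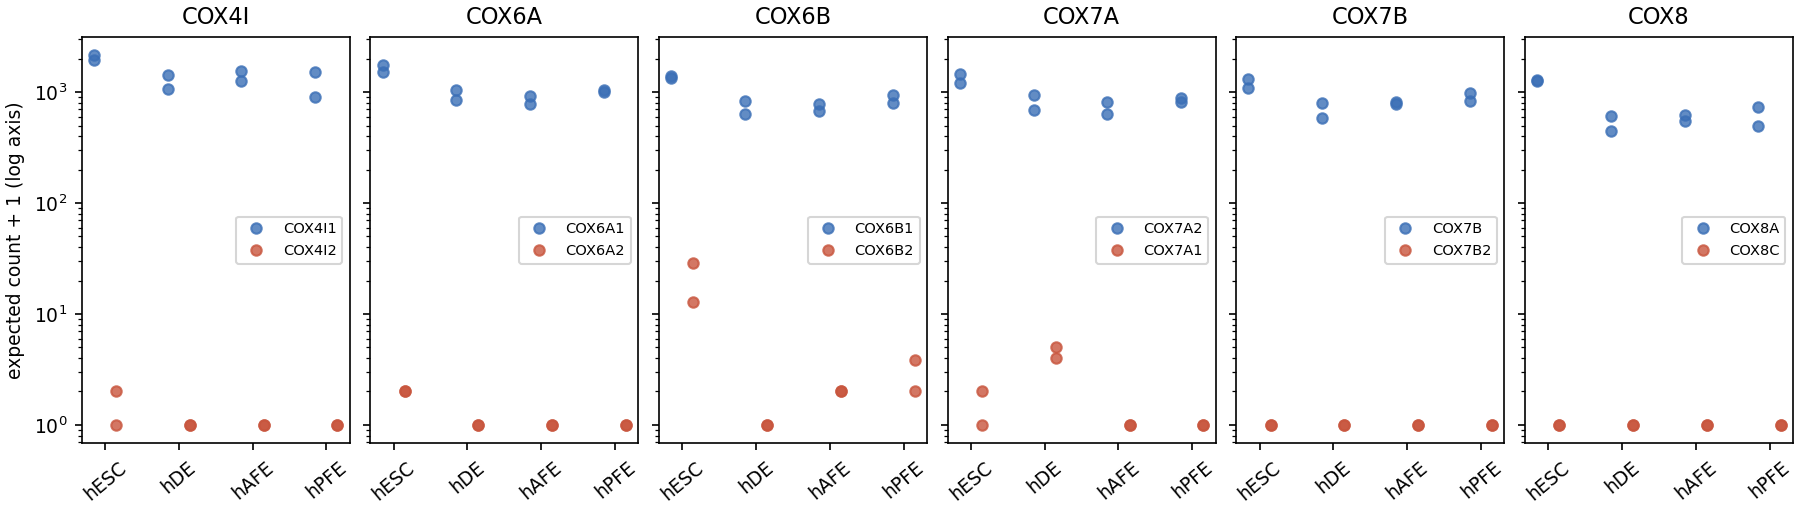
Expected count plus 1 on a log axis for 6 isoform families of complex IV, by stage, with 1 point per library. The widely expressed form (blue) lies between 450.0 and 2153 counts in every library, whereas the tissue form (red) is at or near 0 except COX6B2 in hESC, at 28 and 11.8 counts, and COX7A1 in hDE, at 4 and 3.

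The common isoforms were lower after the hESC stage in every library. Among all genes tested the mean was highest in hESC for 31.3%. Of COX4I1, COX6A1, COX6B1, COX7A2, COX7A2L, COX7B and COX8A, 2 passed the test in hDE vs hESC (COX6B1 and COX8A) and 6 in hPFE vs hESC. In these comparisons 21.6% and 23.3% of all genes were called lower. COX4I1 stood at 117 and 122 CPM in hESC, 95.3 and 103 in hDE, 102 and 92.1 in hAFE, and 92.4 and 65.0 in hPFE, and was called in hPFE vs hESC (log2 change -0.60, SE 0.18, edgeR quasi-likelihood adjusted p = 0.027). COX6A1 stood at 90.5 and 98.5, 75.7 and 75.7, 61.6 and 57.5, and 61.2 and 75.4 CPM. COX6B1 stood at 80.4 and 79.2, 56.4 and 60.0, 51.7 and 49.4, and 56.6 and 57.7 CPM. In all 3 genes both hESC libraries lay above every later library. COX7A2 stood at 72.5 and 82.4, 62.0 and 68.4, 53.6 and 46.5, and 54.1 and 58.4 CPM, and COX7A2L at 61.7 and 55.5, 50.03 and 54.6, 37.1 and 39.1, and 39.8 and 43.1. COX7B stood at 65.7 and 73.8, 52.3 and 57.4, 51.9 and 60.0, and 59.9 and 60.4 CPM, and COX8A at 75.6 and 72.9, 40.1 and 44.2, 40.8 and 40.1, and 44.2 and 35.6. These 4 genes too were higher in both hESC libraries than in any later library, and COX7B was the 1 of the 7 not called in hPFE vs hESC.

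Subunit c of ATP synthase is made from 3 genes that are known to encode the same mature protein with different import signals. ATP5MC1 took 16.4% and 18.1% of their summed TPM in hESC, 10.97% and 11.8% in hDE, 12.3% and 11.7% in hAFE, and 10.6% and 11.6% in hPFE. ATP5MC2 took 48.4% and 46.5%, 36.9% and 34.6%, 50.01% and 55.6%, and 58.1% and 51.3% in the same order. ATP5MC3 took 35.2% and 35.3%, 52.1% and 53.6%, 37.6% and 32.7%, and 31.3% and 37.1%. The hDE libraries thus differed from all 6 others by a larger share of ATP5MC3 and a smaller one of ATP5MC2, and the share of ATP5MC1 was highest in both hESC libraries. In CPM ATP5MC3 stood at 108 and 119 in hESC, 94.1 and 93.5 in hDE, 75.5 and 65.9 in hAFE, and 63.3 and 68.4 in hPFE, and its change in hDE did not pass the test (-0.28, SE 0.13, edgeR quasi-likelihood adjusted p = 0.12).

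**Figure D5:**
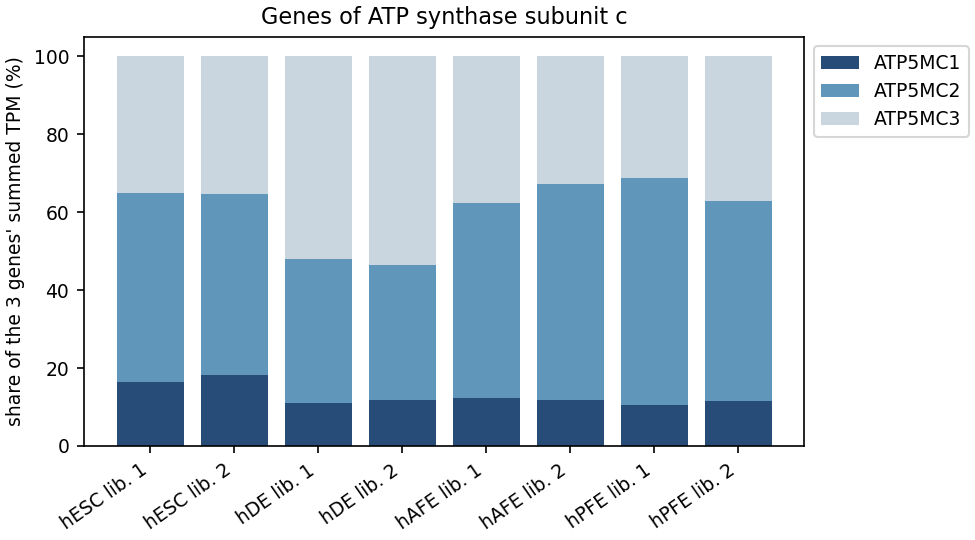
Share of each of the 3 subunit c genes in their summed TPM (vertical axis, percent), with 1 bar per library. ATP5MC3 takes 52.1% and 53.6% in the hDE libraries and 31.3% to 37.6% in the others.

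Genes that build or feed the chain were counted from lists of known assembly factors, mitochondrial gene expression factors and neighbouring pathways. In hDE vs hESC 7 of 16 complex I assembly factors and 7 of 22 complex IV assembly factors were lower, and 0 and 2 were higher, beside 21.6% lower and 20.3% higher among all genes tested. Among 14 assembly factors of complexes II, III and V 2 were lower and 2 higher. ATPAF2, a chaperone for the alpha subunit of ATP synthase, was at 9.73 and 8.90 CPM in hESC, 49.5 and 58.0 in hDE, 7.996 and 9.58 in hAFE, and 9.12 and 9.74 in hPFE. Only the hDE libraries were high, and the change was 2.53 into hDE (edgeR quasi-likelihood adjusted p = 9.1e-05) and -2.61 from hDE to hAFE (edgeR quasi-likelihood adjusted p = 9.0e-05). COX18, which inserts MT-CO2 into the membrane, fell by 1.26 in hDE, and ECSIT, of complex I assembly, fell by 1.30. The ECSIT call was lost without hESC library 2, hDE library 1 or hDE library 2, with an edgeR quasi-likelihood adjusted p of up to 0.067.

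Factors of mitochondrial gene expression were counted next. Of 16 genes of mitochondrial DNA transcription and replication 3 were lower in hDE than in hESC and 10 were lower in hPFE than in hESC, and 0 were called in hAFE vs hDE, where edgeR gave 2 at an unadjusted p under 0.05. Of 18 genes of mitochondrial RNA stability and processing 6 were lower and 2 higher in hDE vs hESC, 3 lower and 1 higher in hAFE vs hDE, none in hPFE vs hAFE, and 10 lower in hPFE vs hESC. Of all genes tested 21.6%, 15.2% and 23.3% were lower in hDE vs hESC, hAFE vs hDE and hPFE vs hESC. LRPPRC, which with SLIRP stabilizes mitochondrial mRNA, was at 416 and 418 CPM in hESC, 209 and 209 in hDE, 238 and 239 in hAFE, and 201 and 252 in hPFE (log2 change in hDE -0.997, edgeR quasi-likelihood adjusted p = 0.0015). SLIRP was at 74.0 and 80.7 CPM in hESC and 26.0 and 31.1 in hPFE (log2 change -1.44, edgeR quasi-likelihood adjusted p = 0.00048). GRSF1, of the mitochondrial RNA granules, was at 275 and 236 CPM in hDE and 103 and 147 in hAFE (log2 change -1.04, edgeR quasi-likelihood adjusted p = 0.0071), a call lost without hDE library 1 (adjusted p = 0.057).

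Of 13 nuclear regulators of mitochondrial genes 2 were higher and 1 lower in hDE vs hESC, smaller shares than among all genes tested. PPARGC1B, a coactivator of respiratory genes, was at 15.1 and 13.6 CPM in hESC and at 0.198 to 0.951 CPM in every later library (log2 change in hDE -4.65, edgeR quasi-likelihood adjusted p = 0.0012). NRF1 itself was at 17.9 to 27.3 CPM over all 8 libraries and was called in none of the 4 comparisons. In the tricarboxylic acid cycle 5 of 18 genes were lower and 3 higher in hDE vs hESC, 6 lower and 2 higher in hAFE vs hDE, and 8 lower in hPFE vs hESC. In hDE vs hESC these shares lay near those of all genes, 21.6% lower and 20.3% higher. Of all genes 15.2% were lower and 15.0% higher in hAFE vs hDE, and 23.3% and 21.6% in hPFE vs hESC. IDH2, the mitochondrial NADP-dependent isocitrate dehydrogenase, was at 50.8 and 47.1 CPM in hESC, 4.81 and 3.84 in hDE, 79.4 and 55.1 in hAFE, and 66.9 and 39.3 in hPFE. It was low in the hDE libraries alone, by -3.51 against hESC (edgeR quasi-likelihood adjusted p = 0.00021).

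Among 18 tested electron carriers and accessory genes 7 were lower and 2 higher in hDE vs hESC, and 8 lower and 2 higher in hPFE vs hESC. Of all genes tested 21.6% were lower and 20.3% higher in hDE vs hESC, and 23.3% and 21.6% in hPFE vs hESC. COQ8A, needed for making coenzyme Q, was at 26.0 and 25.8 CPM in hESC and 6.59 and 5.87 in hDE (log2 change -2.06, edgeR quasi-likelihood adjusted p = 0.00020). HIGD1A, a small protein bound to complexes III and IV and known for its response to low oxygen, was at 76.2 and 95.1 CPM in hESC, 247 and 265 in hDE, 76.5 and 72.5 in hAFE, and 118 and 195 in hPFE. Its hDE libraries lay above all others, and it changed by -1.78 from hDE to hAFE (edgeR quasi-likelihood adjusted p = 0.0014). CYCS, which encodes cytochrome c, went from 210 and 247 CPM in hESC to 130 and 139 in hDE, 118 and 81.8 in hAFE, and 80.5 and 91.4 in hPFE, with both hESC libraries above all the others.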

How the data were processed

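Strand-specific RNA-seq of 8 libraries (4 stages, 2 libraries each) was deposited as RSEM gene tables. The deposited values were expected counts, in which the authors' use of RSEM shares a read among the genes it could come from, and TPM, which also takes effective length into account, per the file headers. Deposited effective lengths and posterior SDs of the counts served as checks. RSEM, DESeq2 and the build hg38 are named in the submitters' processing notes without versions. No aligner is named in the sources used here. Of 59526 rows 58780 matched GENCODE 29, and the other 746 held 0 counts.

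Expected counts were rounded and filtered with filterByExpr, which left 17446 genes. A single model with a term for each of the 4 stages was fitted to all 8 libraries (4 residual degrees of freedom) in edgeR 4.0.16 (R 4.3.3), with TMM scaling, the quasi-likelihood test and Benjamini-Hochberg adjustment over all genes tested, at a threshold of 0.05. The SE is the absolute log2 change over the square root of F. Alternatives used DESeq2 1.42.0 and limma 3.58.1 on log2(TPM + 1) and log2(TPM + 0.1). The edgeR steps were tested on simulated data. In simulated hDE vs hESC, with 14556 genes, they recovered 61% of 100 genes changed 2-fold and 96% of 100 changed 4-fold, with 4 false calls. Many 2-fold changes were thus missed in the simulation. It changed a far smaller share of genes than the 41.9% called in the data, so its recovery need not carry over. A gene not called may still have changed. Counts of nuclear processed copies were 0.129% to 0.336% of nuclear gene counts, and mitochondrial copies in the nucleus took at most 0.0109% of all counts.

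The genes and gene lists were chosen with earlier results of these data known. Values in every library are given for the mitochondrial genes, the isoform genes, the best expressed nuclear gene of each complex, and in each comparison up to 4 called nuclear genes with the largest rise and 4 with the largest fall whose higher stage reached 10 CPM and whose libraries did not overlap. From each list up to 3 called genes of largest change may be named. NRF1 and CYCS were chosen after their values were seen. A planned search for genes like COX7A1 was not made at 8 counts.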

Additional observations from a re-analysis of the deposited data

How the results depend on the processing

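The direction of most calls did not depend on the choice of count method. Over 59 calls of named genes and 18 alternatives each, 834 of 1062 results kept direction and call, 190 kept direction only (128 of them with 1 library left out) and 38 reversed. All reversals came from deposited TPM without further scaling, on which the median of all genes was itself off 0. With limma on log2(TPM + 1) and log2(TPM + 0.1), in that order, nuclear calls were 59 and 64 in hDE vs hESC, 48 and 52 in hAFE vs hDE, and 5 and 6 in hPFE vs hESC. Mitochondrial calls were 0 and 0 in each of hAFE vs hDE, hPFE vs hAFE and hPFE vs hESC. Reversed log2 changes, equal at the digits shown unless a second value is given, were -0.073 for ATP5MD and -0.032 for NDUFB3 in hDE vs hESC. In hAFE vs hDE they were 0.15 for MT-CO2, 0.22 for MT-CYB, 0.20 for MT-CO1, 0.24 for MT-ND3, 0.19 for MT-ND4, 0.27 for MT-ATP6, 0.12 for MT-CO3, 0.41 for MT-ND4L, 0.10 for MT-ATP8, 0.16 and 0.17 for SDHB, 0.39 and 0.41 for NDUFB3, 0.39 for NDUFB2 and 0.21 and 0.22 for TMEM126B. In hPFE vs hESC they were 0.0874 and 0.0875 for MT-CO2, 0.0275 and 0.0274 for MT-ATP6, 0.0405 for MT-ND4L and 0.0026 and 0.0055 for LYRM7. With TPM first scaled by TMM factors, an alternative chosen after seeing the data, nuclear calls were 37, 13, 0 and 53 and mitochondrial calls 1, 7, 1 and 4 in hDE vs hESC, hAFE vs hDE, hPFE vs hAFE and hPFE vs hESC.

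Other settings moved the mitochondrial counts. In hPFE vs hAFE they were 2 with DESeq2 and 2 without a count filter, but 0 with only the 4 libraries compared. Without a count filter they were 2 in hDE vs hESC and 7 in hPFE vs hESC, and with only the 4 libraries compared 2 in hPFE vs hESC. At a fold of at least 2, nuclear calls were 6, 1, 0 and 7 and mitochondrial calls 0 in all 4 comparisons. With 1 library left out, nuclear calls ranged from 16 to 45 in hDE vs hESC, 1 to 16 in hAFE vs hDE, 0 to 5 in hPFE vs hAFE and 18 to 50 in hPFE vs hESC. Mitochondrial calls ranged from 0 to 1, 0 to 9, 0 to 2 and 0 to 5. Where a stage kept 1 library, that library was assumed to vary like the other stages. Calls among all genes moved too. In hDE vs hESC, hAFE vs hDE and hPFE vs hESC they became fewer without a library of either stage compared. In hPFE vs hAFE they became fewer without a hAFE library and more without a hPFE library. The log2 ratio of mitochondrial to nuclear counts moved from 0.87 to 0.61 in hDE and from 0.20 to -0.072 in hAFE when MT-ATP8, MT-ATP6, MT-ND4L and MT-ND4 were left out, since the sums then held fewer genes. The hESC libraries moved likewise, from 0.70 and 0.30 to 0.46 and 0.058, and the hPFE libraries from 0.54 and 0.91 to 0.30 and 0.69. With all genes kept and 1 library left out, the log2 ratio ranged from 0.30 to 0.70 in hESC, 0.75 to 0.99 in hDE, 0.10 to 0.30 in hAFE and 0.54 to 0.91 in hPFE. Unless stated, the cause was not tested.

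Deviations of same-numbered libraries correlated at -0.041 to 0.061 over 9852 genes, so no broad pairing by replicate number was seen. This cannot exclude a pairing that touches fewer genes. Library 1 was the higher one for 13 of 13 mitochondrial genes in hESC and 12 in hDE, but for 3 in hAFE and 0 in hPFE. With the replicate block, nuclear calls were 33, 8, 0 and 49 and mitochondrial calls 1, 5, 0 and 3 in the same order of comparisons. Depth limits what is said of COX7A1, COX4I2, COX6A2 and ATP5MGL, with 8, 1, 2 and 10 counts in all.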
